A study of Mus musculus with 6 samples.

Results

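The genes of the translation initiation and elongation factors were examined in tissue of the sinoatrial node (SAN), the pacemaker region of the heart, from HCN4FEA and WT mice. All genes whose symbol begins with Eif1 to Eif6 or with Eef1 or Eef2 and that have a probe set with exactly 1 gene symbol were taken, with the probe set of the highest mean over 6 arrays standing for a gene that has several. This gave 64 of the 22180 genes with such a probe set, read by 69 probe sets of the 41345 on the array. The prefix also took in 3 further symbols, Eif4a3l1, Eif2c5 (a long noncoding RNA in RefSeq) and the pseudogene Eif1-ps3, which lay between -0.04 and 0.05. Eif2s3x, Eif3j2 and Eif4ebp3 are found only on probe sets with several symbols and were not analysed here, nor were Eif1, Eif2s1, Eif3g and Eif4g1.

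The series holds 3 arrays of HCN4FEA SAN tissue and 3 arrays of WT SAN tissue, all labelled as dissected from adult male mice. The HCN4FEA allele is a gene-targeted knockin present in every tissue, not only in the SAN. It changes 3 amino acids of the pacemaker channel HCN4, of which 2 abolish its activation by cAMP and the other, in the C-linker, shifts its voltage dependence. WT mice carry the unchanged channel, and both genotypes share a mixed strain background. The methods give male mice as the source, with n = 3 for each genotype, and the labels do not tie an array to a mouse, so each p-value reflects only how far these samples vary. Values are RMA log2 signals, on which a difference of 1 is a 2-fold change, and the number of arrays limits the precision.

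Protein synthesis starts when the initiation factors bring the initiator tRNA, the small ribosomal subunit and the capped mRNA together. eIF2 carries the initiator tRNA, eIF3 holds the preinitiation complex, eIF4F binds the cap and unwinds the leader, and eIF1 and eIF1A govern the choice of start codon. The elongation factors then deliver aminoacyl-tRNAs (eEF1A) and move the ribosome along (eEF2). Supply of these factors is controlled in part through their own mRNAs, several of which begin with a pyrimidine tract, the 5′ TOP motif, that ties their translation to the kinase mTORC1. An array measures the amount of mRNA, not its translation.

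The first bases of 6 members are shown because the TOP motif sits there; each window runs from 8 bases before to 20 bases from the annotated RefSeq start on (GRCm38.p6), and capitals mark a C that follows a purine, begins within 5 bases of the start and is followed by at least 4 pyrimidines. The sense strand was searched, and for Eif4e the first of 2 listed starts is shown.
Eef1a1 (chr9:78481705-78481732, minus strand): ccgCCCTCTTCCCgagggtgggggagaa
Eif3f (chr7:108934407-108934434, plus strand): taggCTCTCTCTCTTTCTCggcaagatg
Eif3l (chr15:79075215-79075242, plus strand): gttcttcttccgCTCTCTCCCacgggct
Eif3m (chr2:105017008-105017035, minus strand): gtcggcgtgtttctggatcggagcgtct
Eif4e (chr3:138526183-138526210, plus strand): acagcagcggaggcggagggagctggtc
Eif4a2 (chr16:23107460-23107487, plus strand): aaccccgtaggagcagggcggccgagga
Of the 64 members, 49 had an entry in the promoter table, and 12 of these, 24.5%, held such a run at a listed start, against 14.5% of the 27025 genes in the table. Some genes have several listed starts. Counted by start, the run was found at 18.8% of the starts of members, against 12.4% of the 32851 starts in the table. The 12 with the run had a median log2 fold change of 0.02, and the 37 without it had a median of 0.02. A match is a description of these letters only.

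Of the 64 members, 2 were higher and 1 was lower in HCN4FEA at an unadjusted p under 0.05 by limma. That is 4.69%, beside 6.01% of all 22180 genes. The share was thus close to the background, and the 3 genes are described below as single values. After Benjamini-Hochberg adjustment 0 members passed, as did 0% of all genes, the smallest adjusted p among members being 0.774 from limma. The methods' t-test gave 6 members, 9.38%, at an unadjusted p under 0.05 (Eif3m, Eif3d, Eif3l and Eef1akmt3 higher, Eif3a and Eif4e lower), beside 3.94% of all genes, and 0 after adjustment. With the fold change of at least 1.5 that the methods also ask for, 1 member remained by limma, Eif1a, beside 1.1% of all genes. By the methods' t-test with that fold change 0 members remained. For 57 members, 89.1%, the 95% confidence interval stayed inside a 1.5-fold change in both directions, beside 75.1% of all genes. The median log2 fold change was 0.04 over the members and 0.01 over all genes, and 41 of the 64 members, 64.1%, had a value above 0, beside 53.4% of all genes and 60% of the 5450 genes with a mean of at least 5.

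**Figure D1:**
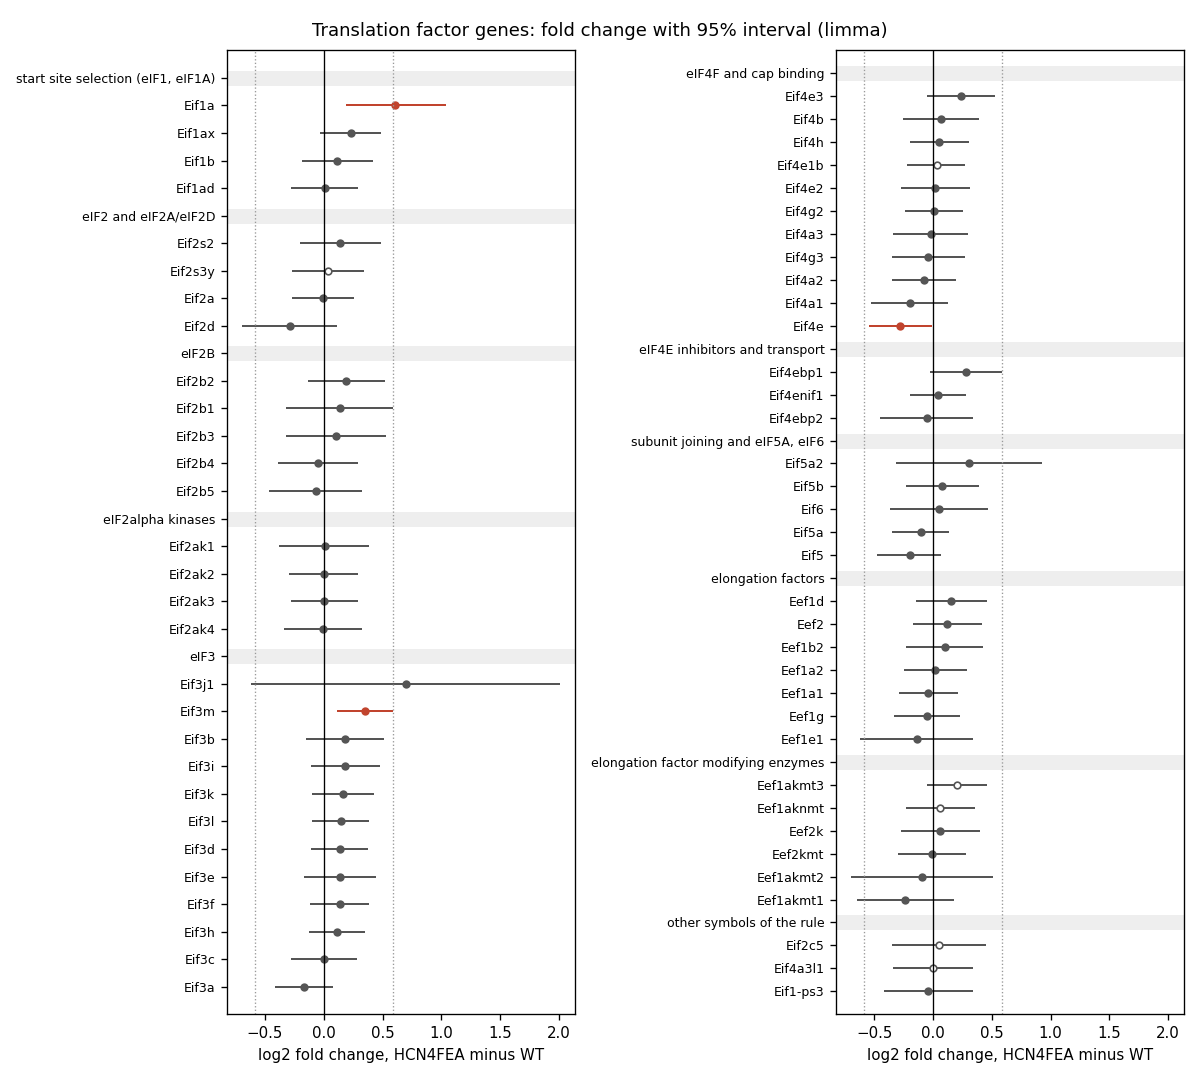
Log2 fold change, HCN4FEA minus WT, of the 64 members with the 95% confidence interval from limma, ordered by role; dotted lines mark a 1.5-fold change, red marks an unadjusted p under 0.05 and open symbols mark a mean at or below the olfactory and vomeronasal receptor level of 2.42. Intervals of 57 genes lie between the dotted lines, and the red genes are Eif1a, Eif3m and Eif4e.

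The tissue was read on 11 markers of sinoatrial and atrial myocardium, all of them above 2.42. That is the 99th percentile of the 1405 olfactory and vomeronasal receptor probe sets, which serve here as a background. As the list joins sinoatrial and atrial genes, it does not tell SAN from other atrial tissue. Hcn4 itself, whose exchanged codons an expression array does not read, was at 6.51, 5.71 and 6.05 in HCN4FEA and 5.04, 6.33 and 6.03 in WT tissue, so its level does not check the genotype. Most neuron markers stood apart on 2 arrays, HCN4FEA 3 and WT 1. Th, Dbh and Chat did not follow this pattern. Th was highest on WT 2 (4.43) and next on HCN4FEA 1, against 2.87 on HCN4FEA 3 and 2.56 on WT 1. Dbh was lower on WT 1 (2.7) than on HCN4FEA 1 (2.77). Chat, in the receptor background, was at 1.71 on WT 1 and 1.67 on WT 3. Snap25 had the highest signal of the neuron markers on HCN4FEA 3 and on WT 1, and so weighed most in their sum there. The summed linear signal of 13 neuron markers was 940.0 on HCN4FEA 3 and 552.7 on WT 1, and between 74.44 and 97.18 on the other arrays. On WT 1 the 6 mesothelium markers were also low, with a sum of 329.9, against 630.8 to 770.2 on the other arrays. Of 12 skeletal muscle markers, 3 were higher in HCN4FEA at an unadjusted p under 0.05. These were Tnnt3 (1.42), Casq1 (1.05) and Acta1 (0.77), all without overlap. Myh4, in the receptor background, was lower without overlap (-0.25). Of the 12 log2 fold changes, 8 were above 0 and 4 below, and 4 of the markers lay in the receptor background. The summed linear signal of the 12 overlapped, at 744.9, 724.9 and 600.9 in HCN4FEA and 667.2, 690.1 and 718.5 in WT tissue. Without HCN4FEA 3 and WT 1 together, 1 member, Eif3m, had an unadjusted p under 0.05, and the median log2 fold change of the members was 0.05. The 9 adipocyte markers summed to between 126.3 and 261.5 in HCN4FEA and between 342.5 and 479.9 in WT tissue. Fasn had the highest signal of the 9 on every array and so weighed most in the sum. Adipoq, Cidec, Plin1, Fasn and Aqp7 were lower in HCN4FEA at an unadjusted p under 0.05 by limma, all without overlap. Among all genes 6.01% passed that threshold in either direction. Retn, Pck1, Lipe and Lep, the gene of the fat hormone leptin, overlapped, and Lep lay in the receptor background. In such bulk tissue, fewer cells of a type and less RNA per cell cannot be told apart. Leaving out HCN4FEA 3 and WT 1 bears only on the neuron and mesothelium markers that set those arrays apart. The part of those markers in the results on translation factors was not tested further. The part of the skeletal muscle and adipocyte markers in these results was not tested.

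Eif3m, a subunit of eIF3, had log2 values of 6.02, 6.15 and 6.10 on the HCN4FEA arrays and 5.75, 5.70 and 5.76 on the WT arrays. The genotypes did not overlap, and within each the values lay close together. Its log2 fold change was 0.35 (standard error 0.10, 95% confidence interval 0.12 to 0.58, unadjusted p = 0.00892, adjusted p = 0.774 from limma). It kept an unadjusted p under 0.05 in 6 of 6 leave-one-out fits, at 0.32 to 0.38, without HCN4FEA 3 and WT 1 together, and by the methods' t-test.

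eIF3 is the scaffold of the preinitiation complex, and 12 of its subunit genes were measured. Of these, 1 was higher and 0 were lower at an unadjusted p under 0.05, while 11 did not pass. The median log2 fold change was 0.14, with 11 of 12 values above 0 as deposited and 10 of 12 when the arrays were centred on their medians or quantile-normalised again. Eif3f read 8.18, 8.13 and 8.22 in HCN4FEA against 8.10, 8.08 and 7.94 in WT tissue. Eif3h read 8.79, 8.76 and 8.73 in HCN4FEA and 8.65, 8.70 and 8.59 in WT tissue. Eif3l read 7.75, 7.70 and 7.67 in HCN4FEA and 7.61, 7.49 and 7.58 in WT tissue. In Eif3f, Eif3h and Eif3l, as in Eif3d, every HCN4FEA value lay above every WT value, with log2 fold changes of 0.11 to 0.15 (adjusted p of 0.884 to 0.911 from limma). A second Eif3d probe set, in the receptor background, was at -0.06.

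Eif3a, the largest subunit and part of the core of the complex, went the other way, with 7.93, 7.98 and 8.06 in HCN4FEA and 8.10, 8.23 and 8.14 in WT tissue. The difference was -0.17 on the log2 scale (adjusted p = 0.877 from limma, interval -0.41 to 0.07). Eif3b (0.18), Eif3i (0.18), Eif3k (0.16), Eif3e (0.14) and Eif3c (0.00) had overlapping genotypes. Groups thus stood apart in 6 of the 12 subunit genes, 5 higher and 1 lower, beside 11.2% of all genes and 13.3% of those with a mean of at least 5. Subunits of 1 complex on the same arrays are not independent of each other.

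Eif3j1, the gene of a loosely bound subunit, was dim and uneven. It read 2.92, 1.60 and 4.12 in HCN4FEA and 2.47, 2.44 and 1.65 in WT tissue. The value on HCN4FEA 3, an array with high neuron markers, was the highest, while WT 1, with high neuron markers too, read 2.47. The log2 fold change of 0.70 had an interval of -0.61 to 2.00, and without HCN4FEA 2 it was 1.34 and past an unadjusted p of 0.05 (adjusted p = 0.862 from limma), against 0.08 without HCN4FEA 3. Over the other 11 subunits the mean deviation from each gene's 6-array mean was 0.06, 0.04 and 0.09 on the HCN4FEA arrays and -0.11, -0.06 and -0.02 on the WT arrays. The genotypes did not overlap in this mean. Nor did they in the mean over all 64 members, which include these genes. That mean was at 0.04, -0.0 and 0.05 in HCN4FEA and -0.04, -0.03 and -0.02 in WT tissue. Over all 22180 genes it leaned the same way by less, at -0.0, 0.0 and 0.02 in HCN4FEA and -0.02, -0.01 and 0.0 in WT tissue.

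**Figure D2:**
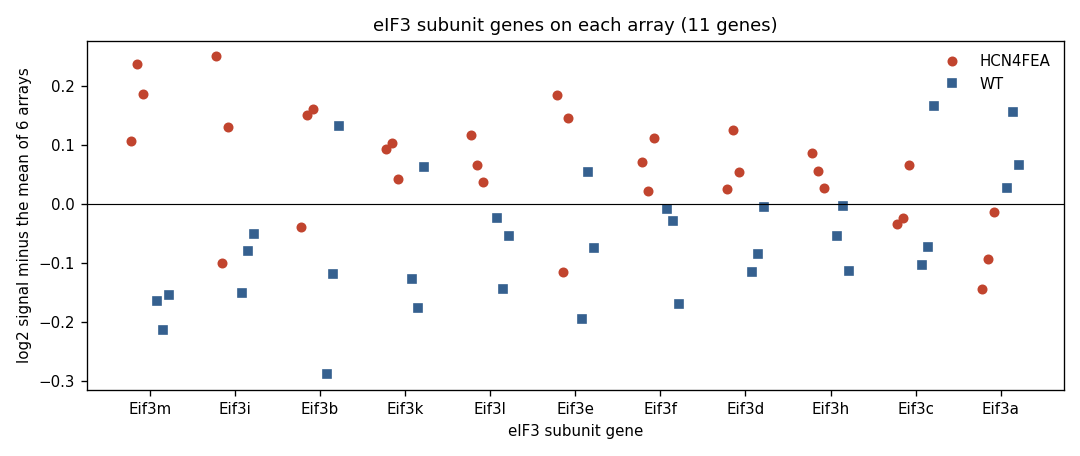
Log2 signal of 11 eIF3 subunit genes on each array, less the gene's mean over the 6 arrays, with HCN4FEA as red circles and WT as blue squares; the dim Eif3j1 is left out. HCN4FEA values lie above all WT values in Eif3m, Eif3l, Eif3d, Eif3f and Eif3h, and below them in Eif3a.

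Eif1a and Eif1ax encode near-identical forms of eIF1A, which with eIF1 scans for the start codon. Eif1a had the largest log2 fold change among members with a mean of at least 4. It read 5.34, 5.18 and 5.57 on the HCN4FEA arrays and 4.39, 4.86 and 4.98 on the WT arrays. The genotypes did not overlap, and WT 1 was the lowest. The log2 fold change was 0.61 (standard error 0.18, 95% confidence interval 0.20 to 1.03, unadjusted p = 0.00961, adjusted p = 0.778 from limma). In the leave-one-out fits it lay between 0.44 and 0.73, with an unadjusted p under 0.05 in 6 of 6, and was lowest without WT 1, the array with high neuron and low mesothelium markers. Without HCN4FEA 3 and WT 1 together it was 0.33 and no longer past it (adjusted p = 0.956 from limma), nor was Eif1a by the methods' t-test.

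Eif1ax, the X-linked copy, read 7.33, 7.31 and 7.38 in HCN4FEA and 7.09, 7.01 and 7.22 in WT tissue. Its groups did not overlap, with a log2 fold change of 0.23 (95% confidence interval -0.02 to 0.48, adjusted p = 0.836 from limma). It passed an unadjusted p of 0.05 in 1 of 6 leave-one-out fits, the one without WT 3. How far probes of such similar transcripts share signal was not tested, and the pair are not taken as separate evidence. Eif1b, a form of eIF1, was at 0.11 and Eif1ad, a related protein, at 0.01, both with overlapping genotypes.

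Eif4e, the cap-binding protein and the limiting part of eIF4F, was the only member lower at an unadjusted p under 0.05. It read 5.59, 5.69 and 5.80 on the HCN4FEA arrays against 6.06, 5.90 and 5.97 on the WT arrays. All HCN4FEA values lay below all WT values, by 0.10 at the nearest. The log2 fold change was -0.28 (standard error 0.11, 95% confidence interval -0.54 to -0.02, unadjusted p = 0.0359, adjusted p = 0.805 from limma). It kept an unadjusted p under 0.05 in 2 of 6 leave-one-out fits, and not without HCN4FEA 1 (-0.23), HCN4FEA 2 (-0.28), WT 1 (-0.24) or WT 3 (-0.28). The methods' t-test did pass it.

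The other cap-binding genes did not pass. Eif4e2, whose protein binds the cap without joining eIF4F, was at 0.02. Eif4e3 was at 0.24 (95% confidence interval -0.04 to 0.52), with 6.28, 6.02 and 6.13 in HCN4FEA and 5.83, 5.84 and 6.04 in WT tissue. Eif4e1b, an oocyte form, lay in the receptor background on every array, between 1.07 and 1.19.

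Eif4ebp1 encodes a protein that binds eIF4E and blocks its entry into eIF4F until mTORC1 phosphorylates it. It read 6.08, 6.24 and 6.08 in HCN4FEA and 5.96, 5.64 and 5.97 in WT tissue. Here too the groups did not overlap, and the log2 fold change of 0.28 had an interval of -0.02 to 0.58 (adjusted p = 0.836 from limma). Eif4ebp2, its relative, was at -0.05, and Eif4enif1, which carries eIF4E into the nucleus, at 0.04.

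**Figure D3:**
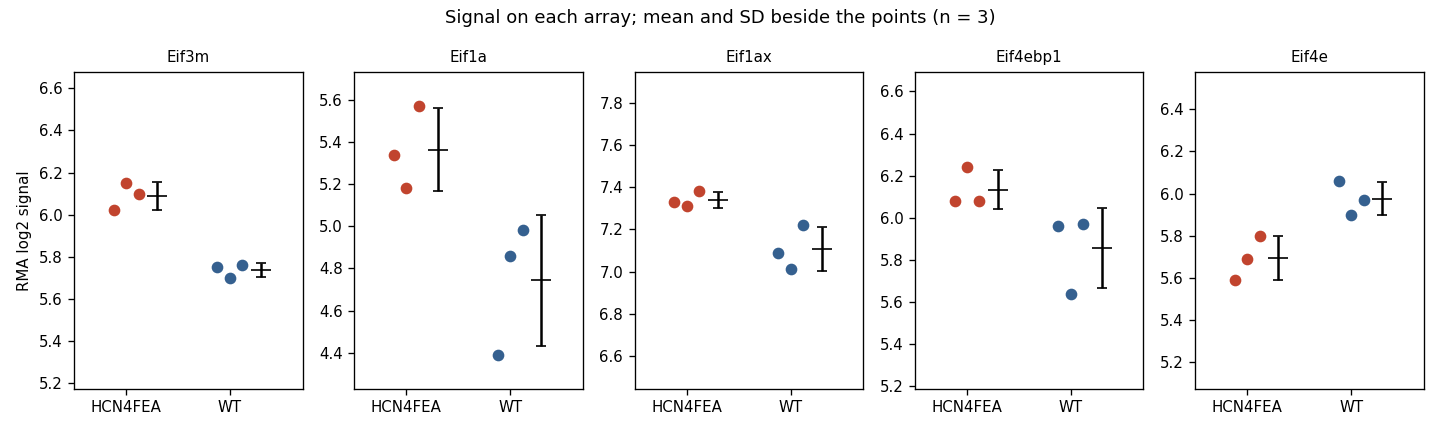
RMA log2 signal of 5 members on each of the 3 HCN4FEA and 3 WT arrays, with the mean and SD beside the points; each panel spans 1.5 log2 units. The groups do not overlap in any panel, with HCN4FEA lower in Eif4e and higher in the other 4.

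Eif4a2 encodes a form of eIF4A, the RNA helicase of eIF4F. Besides 3 probe sets that carry its symbol among several and were not used, it has 3 with its symbol alone. The one that represents the gene, 17324378, read 8.48, 8.45 and 8.34 in HCN4FEA and 8.65, 8.39 and 8.47 in WT tissue. The genotypes overlapped, at -0.08 (interval -0.34 to 0.19, adjusted p = 0.942 from limma). On the other two, all HCN4FEA values lay below all WT values. Probe set 17324396 read 4.87, 5.06 and 5.25 in HCN4FEA and 5.82, 5.98 and 5.75 in WT tissue, so that every HCN4FEA value was at least 0.50 below every WT value. Its log2 fold change was -0.79 (standard error 0.13, 95% confidence interval -1.10 to -0.48, unadjusted p = 0.000384, adjusted p = 0.724 from limma), a 1.73-fold lower signal, and it lay between -0.88 and -0.69 in the leave-one-out fits, past an unadjusted p of 0.05 in 6 of 6, and at -0.90 without HCN4FEA 3 and WT 1 together.

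Probe set 17324400 of Eif4a2 read 4.96, 4.77 and 4.10 in HCN4FEA and 5.65, 5.01 and 5.20 in WT tissue. Its groups lay apart by only 0.05, with a log2 fold change of -0.67 (95% confidence interval -1.25 to -0.09, unadjusted p = 0.0279, adjusted p = 0.789 from limma). It was not past an unadjusted p of 0.05 without HCN4FEA 3 (-0.42), without WT 1 (-0.49), without both (-0.24, adjusted p = 0.977 from limma) or by the methods' t-test. Of all 25341 probe sets tested, 2.71% were lower at that threshold. These probe sets were singled out with their results known, so their p-values are no independent support.

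The difference between the probe sets of Eif4a2 was taken within each array. Relative to 17324378, 17324396 lay at -3.61, -3.40 and -3.10 on the HCN4FEA arrays and at -2.83, -2.41 and -2.72 on the WT arrays, a change of -0.71 (exact two-sided permutation p = 0.1, the smallest that 3 against 3 allows). For 17324400 the change was -0.60, with the same exact p = 0.1. The differences restate values that were known when the probe sets were singled out, so these exact p-values are no independent support either. The exons or introns that these probe sets cover were not analysed here. RefSeq places small nucleolar RNAs, among them Snord2 and Snora81, inside Eif4a2. The fat hormone gene Adipoq was the first protein-coding gene found to start beyond the end of Eif4a2. A gene that overlaps this end would have been passed over, so Adipoq need not be the adjacent gene. Adipoq had a log2 fold change of -1.25 (adjusted p = 0.724 from limma), with 3.93, 2.82 and 3.63 in HCN4FEA and 4.81, 4.63 and 4.69 in WT tissue. Adipoq, 17324396 and 17324400 were thus all lower in HCN4FEA without overlap, and the part of Adipoq or of fat tissue in the values of these probe sets was not tested.

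**Figure D4:**
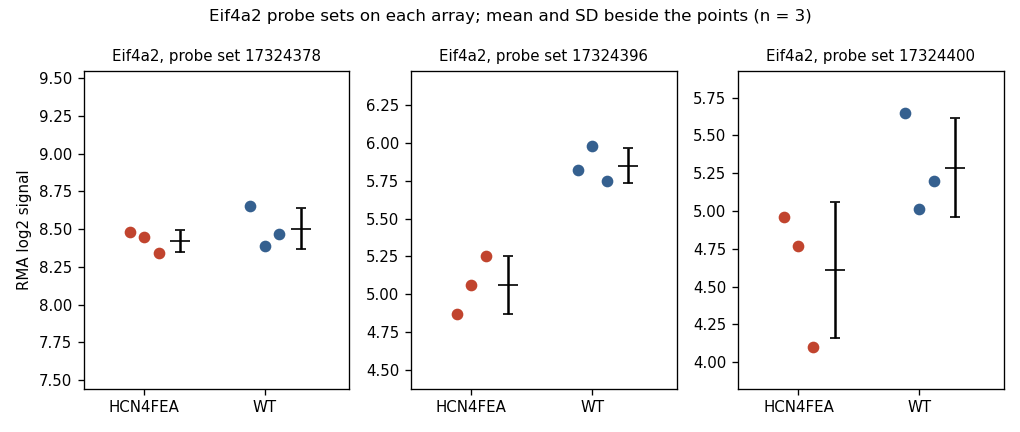
RMA log2 signal of the 3 probe sets with the symbol Eif4a2 alone on each HCN4FEA and WT array, with the mean and SD beside the points (n = 3). Each panel spans 2.1 log2 units. HCN4FEA and WT values overlap on 17324378 and stand apart on 17324396 and 17324400.

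Among the paralogues of Eif4a2, Eif4a1, the general form of the helicase, was at -0.20 (interval -0.52 to 0.12) on the probe set that stands for the gene and at -0.06 (-0.30 to 0.18) on another, both with overlapping genotypes. Eif4a3, the helicase of the exon junction complex rather than of initiation, was close to the receptor background with means of 2.51 in HCN4FEA and 2.53 in WT tissue (SD 0.15 and 0.17, n = 3 each). A further probe set carries its symbol among several and was not used. Eif4g2 and Eif4g3, relatives of the eIF4F scaffold, were at 0.01 (-0.23 to 0.25) and -0.04 (-0.34 to 0.26). Eif4b and Eif4h, which assist the helicase, were at 0.07 and 0.05.

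eIF2 and its regulators govern the integrated stress response, in which kinases phosphorylate eIF2 and so block its guanine nucleotide exchange factor, eIF2B. None of the 4 kinase genes passed, and their log2 fold changes lay between -0.01 and 0.01. Eif2ak3 (PERK, the kinase of endoplasmic reticulum stress) read 3.85, 4.05 and 4.09 in HCN4FEA and 4.08, 3.87 and 4.03 in WT tissue. For Eif2ak1, the haem-regulated kinase, the interval was -0.37 to 0.38, for Eif2ak2 (PKR, activated by double-stranded RNA) -0.29 to 0.28, and for Eif2ak4 (GCN2, activated by uncharged tRNA) -0.33 to 0.32. All of these lie within 1.5-fold either way.

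The 5 genes of eIF2B lay between -0.07 for Eif2b5, the catalytic subunit, and 0.19 for Eif2b2, and 0 of them passed. Eif2b1, Eif2b3 and Eif2b4 were at 0.14, 0.10 and -0.05. Eif2s2, a subunit of eIF2, was at 0.14, and Eif2a, an alternative carrier of initiator tRNA, at -0.01. Eif2d, which can bring tRNA to the ribosome without eIF2, was at -0.29 (95% confidence interval -0.69 to 0.10), the lowest log2 fold change of a member, with 4.36, 4.91 and 4.64 in HCN4FEA and 4.72, 5.11 and 4.95 in WT tissue. Those values overlap. Eif2s3y, the Y-linked copy of an eIF2 subunit gene, lay in the receptor background on all arrays labelled male, at 1.54, 1.41 and 1.24 in HCN4FEA and 1.50, 1.23 and 1.35 in WT tissue, while Xist read between 8.97 and 9.08 in HCN4FEA and between 9.02 and 9.43 in WT tissue. Both genotypes were alike in this departure from the label.

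Eif5, the activator of GTP hydrolysis by eIF2, read 7.10, 7.22 and 7.21 in HCN4FEA and 7.35, 7.26 and 7.52 in WT tissue. Its groups stood apart with a log2 fold change of -0.20 (95% confidence interval -0.47 to 0.06, adjusted p = 0.870 from limma). Eif5a, which eases the joining of proline residues and is the only carrier of the amino acid hypusine along with its copy Eif5a2, was at -0.10, again without overlap. Eif5a2 was at 0.31 and uneven, with 3.95, 3.48 and 4.62 in HCN4FEA and 3.78, 3.51 and 3.84 in WT tissue. It was highest on HCN4FEA 3, with a log2 fold change of 0.00 without that array and 0.57 without HCN4FEA 2. Eif5b, which joins the ribosomal subunits, was at 0.08, and Eif6, which keeps them apart, at 0.05.

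Of the 7 elongation factor genes, 0 passed in either direction, and all genotypes overlapped. Eef1e1, which binds tRNA synthetases, was at -0.14 (95% confidence interval -0.61 to 0.33). Eef1a1 read 10.14, 10.18 and 10.02 in HCN4FEA against 10.12, 10.17 and 10.16 in WT tissue, with a difference of -0.04 (95% confidence interval -0.28 to 0.20). Eef1a2, the form that replaces eEF1A1 in muscle and neurons after birth, read 8.78, 8.86 and 8.68 in HCN4FEA and 8.86, 8.74 and 8.66 in WT tissue, with a log2 fold change of 0.02 (-0.24 to 0.28). On HCN4FEA 3 and WT 1, the arrays with high neuron markers, Eef1a2 was at 8.68 and 8.86, within the range of the others. The exchange factor subunits Eef1b2, Eef1d and Eef1g were at 0.10, 0.15 and -0.05.

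Eef2 read 9.98, 10.05 and 9.97 in HCN4FEA and 9.91, 10.03 and 9.68 in WT tissue, at 0.12 (95% confidence interval -0.16 to 0.41). Its kinase gene Eef2k, whose product halts elongation in response to calcium and is restrained by mTORC1, was at 0.06 (-0.26 to 0.39). Among the enzymes that methylate elongation factors, Eef2kmt was at -0.01, Eef1akmt1 at -0.24 (-0.64 to 0.17), Eef1akmt2 at -0.09 (-0.69 to 0.50) and the dim Eef1aknmt at 0.06. Eef1akmt3 had non-overlapping groups and passed the methods' t-test, yet its values, 1.15 to 1.46, all lay in the receptor background.

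Over all members the genotypes stood apart in 13 of 64 genes, 20.3%, 9 higher and 4 lower in HCN4FEA. The share was 11.2% of all genes and 13.3% of those with a mean of at least 5. Of these 13, 6 are eIF3 subunit genes. None of the 13 passed after adjustment.

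Other genes of the pathway were read from lists. Of 13 genes of mTORC1 and S6 kinase signalling, 0 passed an unadjusted p of 0.05, with a median log2 fold change of 0.04. In 4 of the 13 the genotypes did not overlap, 3 higher and 1 lower. The share was 11.2% of all genes and 13.3% of those with a mean of at least 5. Mtor itself was at 0.17, with 6.03, 6.15 and 6.07 in HCN4FEA against 5.86, 5.88 and 6.00 in WT tissue (adjusted p = 0.875 from limma), and all 13 intervals lay within 1.5-fold. Of 11 genes of the integrated stress response, 0 passed on the probe set that stands for the gene. Gcn1, whose protein activates GCN2, was at -0.10 on that probe set but at 0.93 on another (adjusted p = 0.816 from limma, past an unadjusted p of 0.05), with 5.09, 5.25 and 5.57 in HCN4FEA against 4.72, 3.37 and 5.05 in WT tissue. The low value of WT 2 stood apart there. Atf4, whose mRNA is translated when eIF2 is phosphorylated, was at 0.04, and its target Asns at 0.48 with 5.08 on HCN4FEA 3 and at most 4.04 on the other arrays. Of 18 genes of poly(A) binding, scanning, termination and recycling, 0 passed, with a median of 0.08.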

How the data were processed

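RNA of SAN tissue, 3 HCN4FEA and 3 WT samples, was labelled with the Affymetrix whole transcript sense kit and hybridised to mouse gene arrays. The authors read the arrays into Affymetrix Expression Console 1.0 and used RMA, which corrects background, normalises the arrays by quantiles and gives 1 log2 value per probe set; they then tested in Partek 6.5. The log2 values were taken as the authors deposited them. Quantile normalisation hides a change shared by all genes. No source used here names the genome build of the annotation. Array medians lay between 2.44 and 2.51, and the pairwise r of arrays across probe sets, which are not replicates, was 0.983 to 0.991.

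Of the 41345 probe sets, 23521 have 1 symbol in the platform annotation, 1820 several and 16004 none there. The 25341 with a symbol were fitted with limma 3.58.1 in R 4.3.3 (3.85 prior degrees of freedom, no replicate block), with Benjamini-Hochberg adjustment over all of them, and the members were read out of that fit. The methods' t-test with unequal variances, other scalings, a filter at a mean of 4, all probe sets, gene means, the replicate block and left-out arrays were alternatives. Python 3.11.15 with matplotlib 3.10.9 made the figures.

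The members and lists were chosen with earlier results of these data known. Named genes were members past an unadjusted p of 0.05, all Eif4a2 probe sets, the 8 with the highest mean, the 3 highest and 3 lowest fold changes at a mean of at least 4, preset paralogue sets, and up to 3 genes per pathway list past that p; others named, among them Mtor, Atf4, Asns, Gcn1, Adipoq and members with uneven or non-overlapping values, were chosen after their values were seen. Sequences are from RefSeq.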

Additional observations from a re-analysis of the deposited data

How the results depend on the processing

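Against 3 members past an unadjusted p of 0.05, there were 6 by the methods' t-test, 9 by a t-test with equal variances, 1 without WT 1 and HCN4FEA 3 together, and 2 to 5 with single arrays left out (5 without HCN4FEA 2, 2 without WT 1). Against 1 member that also changed 1.5-fold, there were 0 by the methods' t-test, after repeated quantile normalisation and without both arrays, and 0 to 2 with single arrays left out (0 without HCN4FEA 3 or WT 1, 2 without HCN4FEA 2). The median log2 fold change of 0.04 was 0.01 after repeated quantile normalisation and ran from 0.03 to 0.06 with single arrays left out. The eIF3 median of 0.14 ran from 0.12 to 0.16 over the alternatives, a value chosen after seeing the data. With the mean over its probe sets of 1 symbol Eif4a2 was at -0.51 and past an unadjusted p of 0.05 (adjusted p = 0.717 from limma). Same-numbered arrays did not deviate together (r of -0.05, 0.09 and -0.03 for numbers 1, 2 and 3). The labels do not say whether such arrays were collected or processed as pairs, and these r values cannot settle it. With the replicate block 3 members passed, Eif4e no longer and Eif2d newly (adjusted p = 0.787 from limma). Of 1051 gene values under the alternatives, 17 were no longer past the threshold, 20 passed it newly, and 0 called values changed sign. The cause of these changes was not tested. The number of arrays limits what small differences can be seen, and dim probe sets show little of a transcript.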

Other observations

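The factors of mitochondrial translation form a separate set from the cytosolic factors. Of 10 such genes, 0 passed an unadjusted p of 0.05, the median log2 fold change was -0.01, and all 10 intervals lay within 1.5-fold either way. Tufm, the mitochondrial counterpart of eEF1A, read 6.83, 6.83 and 6.51 in HCN4FEA and 6.57, 6.59 and 6.95 in WT tissue, with a log2 fold change of 0.02 (adjusted p = 0.995 from limma).

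Introns of several translation factor genes hold small nucleolar RNAs, and 3 of these have a probe set with 1 symbol. Snora41, inside Eef1b2, read 1.55, 2.01 and 1.82 in HCN4FEA and 2.38, 2.19 and 2.14 in WT tissue, with a difference of -0.45 (95% confidence interval -0.78 to -0.11, unadjusted p = 0.0155, adjusted p = 0.778 from limma), with all values in the receptor background. Its host Eef1b2 was at 0.10. Without HCN4FEA 1 or WT 1 Snora41 was at -0.32 and -0.38 and not past an unadjusted p of 0.05, nor was it by the methods' t-test. Snord37, inside Eef2, and Snord66, inside Eif4g1, had log2 fold changes of 0.18 and -0.14 and did not pass.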
